A study of Mus musculus with 11 samples.

Results

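The genes described here are 42 mouse genes that take fatty acids up into muscle and burn them in mitochondria, together with close partners of that route: acyl-CoA thioesterases, the enzymes that set malonyl-CoA, uncoupling proteins and enzymes of ketone body use. The rule that lists them goes by known function and uses no measured value. The genes were nevertheless chosen with earlier results of these data known. They were matched to array probes by current or former gene symbol. Of the 42 genes, 40 had a probe of that name, with 82 probes in all, and 38 could be tested among the 10129 genes tested in the series. All 38 were detected on all 11 arrays by the probe used, which was the brightest of each gene. Cpt1a, the liver form of carnitine palmitoyltransferase (2 probes), and Acaca, the cytosolic acetyl-CoA carboxylase of fat synthesis (1 probe), were detected on none of the 11 arrays and were not tested. Acsl1 and Ucp2 had no probe under their names in the annotation used and were not analysed here.

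Total RNA of the quadriceps, a mixed muscle of the thigh, was measured in 11 female CD2F1 mice of 5 to 6 weeks of age by the labels, on Illumina MouseWG-6 v2.0 arrays, with 1 array per mouse. The groups were 4 mice with severe cachexia (a body weight loss of 15%), 3 mice with moderate cachexia (a loss of 10%, named early cachexia in the labels) and 4 control mice without a tumor. Cachexia came from C26 cells, a colon adenocarcinoma line of the mouse, implanted under the skin, so both stages stand for a single tumor line, and no gene was altered in any group. Stages were set by weight loss and both were compared with the same 4 controls, so the 2 comparisons against control share those arrays. By the authors' account, controls were injected with PBS, and severe mice were killed on a later day after injection than moderate mice. Stage and time since injection can therefore not be told apart. Mice are named by the numbers of their columns in the deposited table: severe mice 11, 13, 15 and 16, moderate mice 5, 9 and 12 and control mice 1 to 4. Values of single mice are given in that order. They are log2 signals after normalization, each gene was read by its own probe, and levels of different genes are therefore not compared with each other.

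Long-chain fatty acids enter muscle fibers with the help of Cd36 and transport proteins, are activated to acyl-CoA by synthetases and cross into mitochondria as carnitine esters. There, β-oxidation shortens the chain in repeated rounds of dehydrogenation, hydration, a further dehydrogenation and thiolysis, and its electrons pass through the electron transfer flavoprotein to the respiratory chain. Malonyl-CoA blocks entry into mitochondria, while thioesterases split acyl-CoA back to free acid. In skeletal muscle many of these genes are known targets of the nuclear receptors PPARα and PPARδ and of estrogen-related receptors with their PGC-1 coactivators, and rise with fasting, when muscle shifts from glucose to fat.

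The arrays of the series were of like quality, with 18935 to 19809 probes detected at p under 0.01 per severe array, 18681 to 19277 per moderate array and 18626 to 20006 per control array. Skeletal muscle fiber markers were bright on all arrays, and their summed signal was 225972 to 232822 in severe, 226196 to 232900 in moderate and 225126 to 234369 in control mice. The deposited intensities had been quantile-normalized, which holds the brightest values alike on all arrays. These sums therefore do not measure muscle content. Severe mouse 11 stood apart from its group. Its summed adipocyte marker signal was 13416, within the control range of 11022 to 14442, against 2492 to 3971 in the other severe mice and 3741 to 5099 in moderate mice. Its summed macrophage marker signal was 7751, against 3489 to 3837 in the other severe mice, 3637 to 4657 in moderate mice and 2167 to 2558 in control mice. Severe results that rest on this mouse are therefore also given without it. Control mouse 1 stood apart in neutrophil markers, with a summed signal of 1122 against 133 to 142 in the other controls, beside 470 to 1398 in severe and 198 to 651 in moderate mice. Slow and oxidative fiber markers were lower in both stages, with 7 of 8 tested passing the test in each (median log2 fold change -1.37 in severe and -1.60 in moderate cachexia) and summed signals of 19185 to 25153 in severe, 23666 to 35350 in moderate and 38804 to 60147 in control mice. Brown adipocyte markers, of a cell type that also burns fatty acids, had summed signals of 13412 to 21236 in severe, 19911 to 27598 in moderate and 31825 to 35354 in control mice, with 3 of 5 tested falling in severe and 4 in moderate cachexia. Most of these sums came from Cox8b and Cox7a1 (17033 and 13328 in control mouse 1, of 31825). Muscle also expresses both genes, so these sums do not measure brown adipocytes alone. Cox8b (-0.51) and Cox7a1 were among the 3 markers that fell in severe cachexia. Ucp1, the uncoupling protein of brown fat, was at -3.15 in severe and -4.35 in moderate cachexia, and Cox7a1 at -1.70 and -0.83 in these stages. Severe mouse 11 held Ucp1 at a log2 signal of 9.98, within the control range of 8.87 to 10.32. The other severe mice were at 4.53 to 6.18. Of 7 fibroblast markers tested, 1 rose and 3 fell in each stage (median log2 fold change -0.96 in severe and -0.98 in moderate cachexia), with Col1a1 at -2.24 in each, while their summed signals overlapped between the groups (12226 to 17782 in severe, 14470 to 17930 in moderate and 15169 to 16004 in control mice). Dcn, at -0.11 in severe and 0.09 in moderate cachexia, made up most of these sums (12159 of 15569 in control mouse 1). These lists move with the groups compared below, and their part in the results was not tested. In RNA of whole muscle, fewer cells of a type and less RNA per cell cannot be told apart.

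The genes of fatty acid use did not move as a block. In severe cachexia 13 of 38 passed the test (34.2%), 6 up and 7 down, where 33.3% of all 10129 genes did (15.5% up and 17.8% down). In moderate cachexia 14 of 38 passed (36.8%), 7 up and 7 down, where 41.1% of all genes did (18.9% up and 22.2% down). The median log2 fold change of the 38 genes was -0.07 in each stage, beside 0.00 in severe and -0.03 in moderate cachexia over all genes tested. The share of changed genes was near that of the whole array in each stage. Among genes that passed, the largest rises were those of the thioesterase Acot1, the synthetase Acsl6 and the malonyl-CoA enzyme Acacb in severe cachexia, and of the thioesterases Acot1 and Acot2, the uncoupling protein Ucp3 and Acacb in moderate cachexia. Among genes that passed, the largest falls were those of Oxct1, Acaa2, Bdh1 and Acads in severe and of Oxct1, Acaa2 and Hadh in moderate cachexia. Between the stages, only Ucp3 passed the test among the 38 genes (2.63%), where 7.01% of all genes did (3.18% higher and 3.83% lower in severe cachexia). Without severe mouse 11, 17 of the 38 genes passed in severe cachexia, 10 up and 7 down, among them all 13 that passed with it, where 40.4% of all genes did. Without control mouse 1, 9 of the 38 genes passed in severe and 9 in moderate cachexia, where 2571 and 3399 of the 10129 genes did, and the severe calls of Acsl6, Acadl, Acadm, Acot1 and Eci2 were lost, with the values given below.

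**Figure D1:**
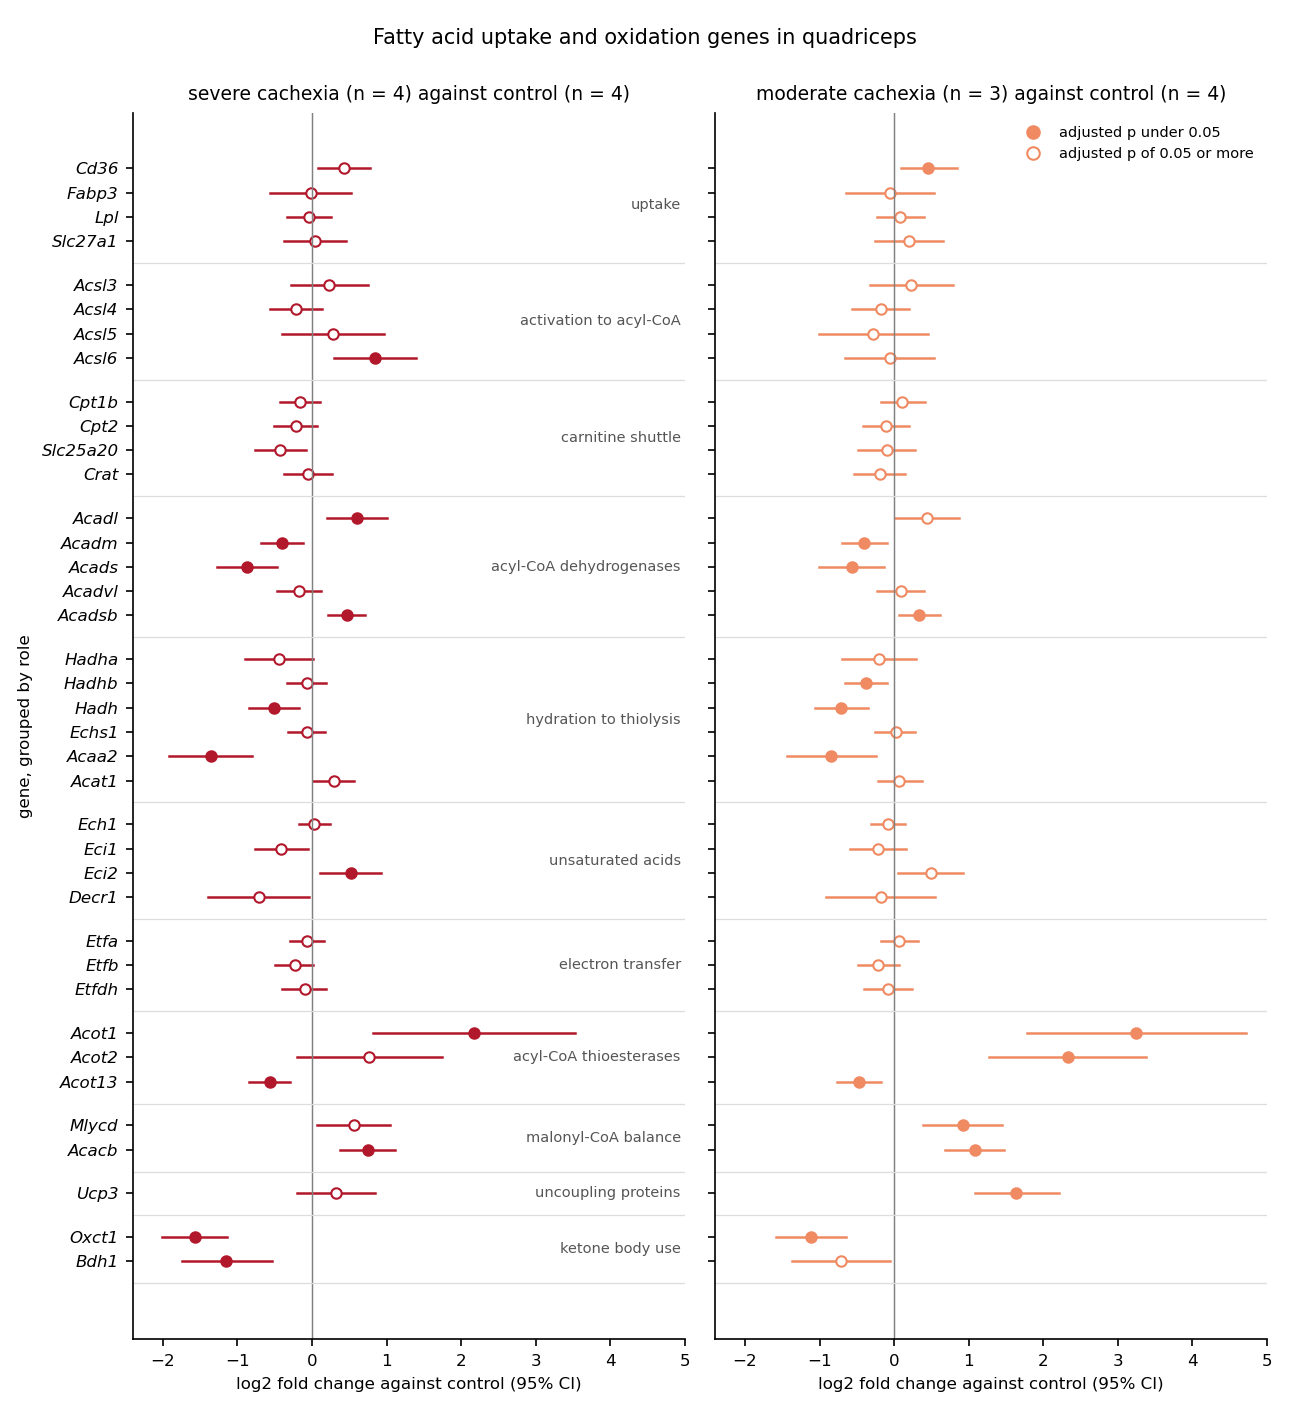
Log2 fold change (x axis) of each of the 38 tested genes (y axis, grouped by role) in severe cachexia (left, n = 4) and moderate cachexia (right, n = 3) against 4 control mice, with bars for the 95% confidence interval from limma and filled points for an adjusted p under 0.05. Filled points lie on either side of 0 in both stages, from -1.57 (Oxct1) to 2.18 (Acot1) in severe and from -1.11 (Oxct1) to 3.25 (Acot1) in moderate cachexia.

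Groups did not overlap for 11 of the 38 genes in severe cachexia and control (3 higher, 8 lower), where 32.3% of all genes did not. They did not overlap for 13 in moderate cachexia and control (7 higher, 6 lower), where 47.7% of all genes did not. The genes that passed in both stages were 9 in number: Acadm, Acads, Acadsb, Hadh, Acaa2, Acot1, Acot13, Acacb and Oxct1. Another 4 passed in severe cachexia alone (Acsl6, Acadl, Eci2 and Bdh1), 5 in moderate cachexia alone (Cd36, Hadhb, Acot2, Mlycd and Ucp3) and 20 in neither. Of these genes, Ucp3 was the one whose difference between the stages passed the test, so the others that passed in a single stage were not shown to differ between the stages. Severe and moderate mice did not overlap for 4 of the 38 genes, Acsl6 (higher in severe) and Acot2, Acacb and Ucp3 (lower in severe), where 20.1% of all genes did not.

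**Figure D2:**
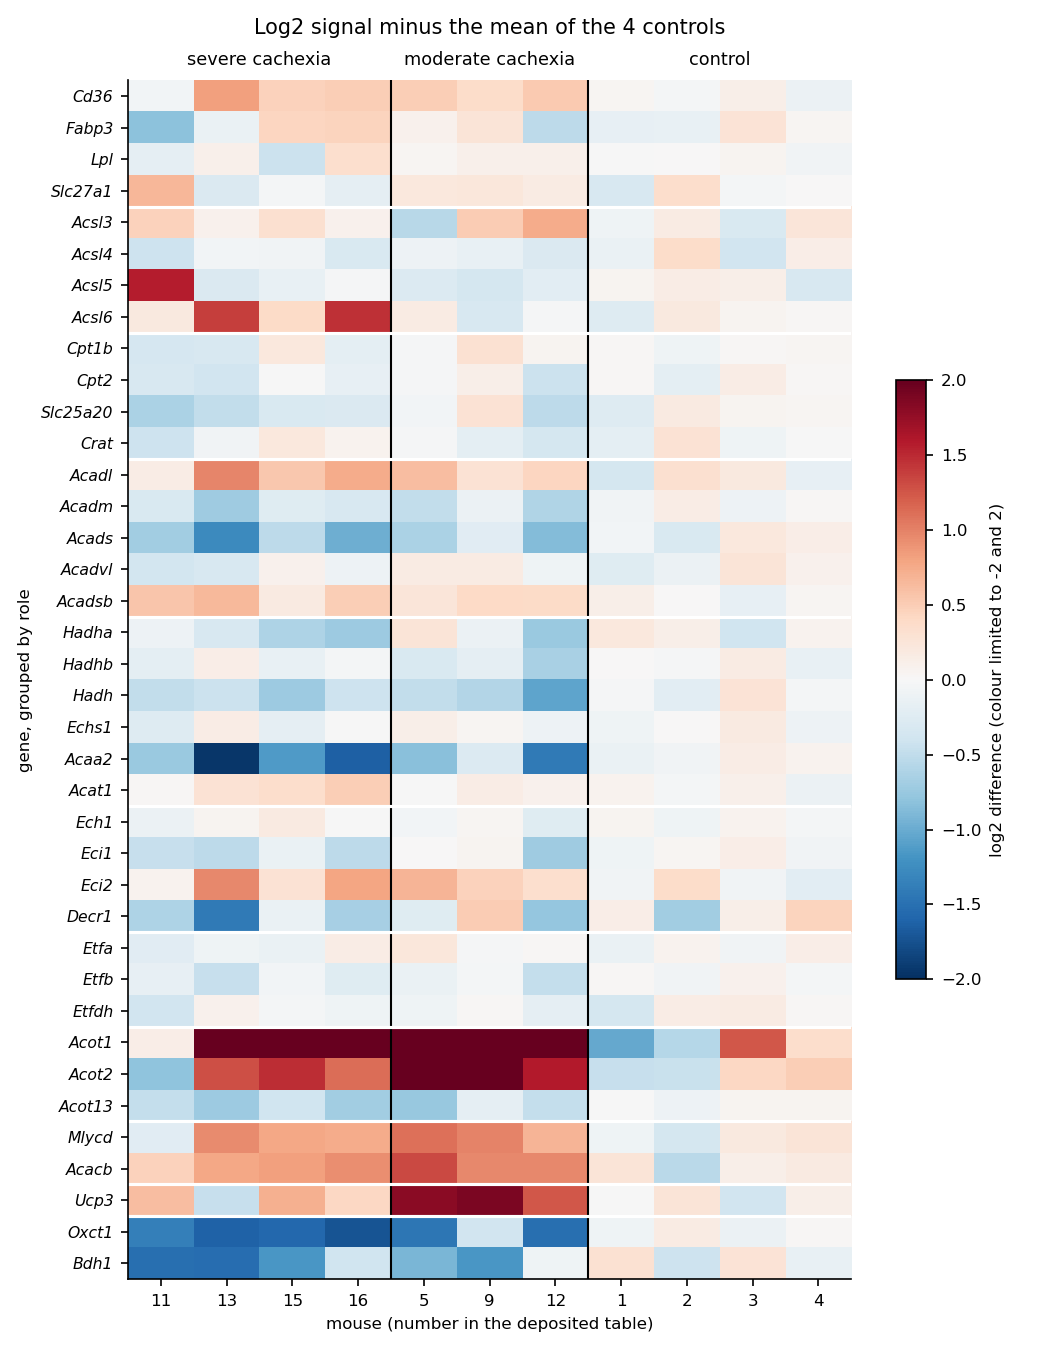
Log2 signal of each of the 38 genes (rows, grouped by role) in each mouse (columns) minus the mean of the 4 control mice, in color from -2 to 2. Rows of Acot1, Acot2, Mlycd and Acacb are red in severe mice 13, 15 and 16 and in the 3 moderate mice, the row of Ucp3 is dark red in the moderate mice alone, and the rows of Oxct1 and Acaa2 are blue in all severe mice, while severe mouse 11 differs from its group in Acsl5, Acot1, Acot2 and Mlycd.

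Of the 4 uptake genes, only Cd36 passed the test, and only in moderate cachexia. Cd36 encodes the fatty acid translocase of the cell surface. Its log2 signal was 5.37, 6.25, 5.89 and 5.92 in severe mice, 5.92, 5.80 and 5.95 in moderate mice and 5.47, 5.39, 5.54 and 5.31 in control mice. All moderate mice lay above all controls, and so did the severe mice other than mouse 11. The log2 fold change was 0.43 (standard error 0.16, adjusted p = 0.0558) in severe and 0.46 (standard error 0.17, adjusted p = 0.0485) in moderate cachexia, and 0.59 (adjusted p = 0.00352) in severe cachexia without mouse 11. The moderate call lay close to the threshold and was lost on leaving out any mouse but severe mice 11 and 13 (log2 fold change 0.42 to 0.51, adjusted p = 0.0602 to 0.127). The only probe of Cd36 was dim, with a mean deposited signal of 43.4 in severe, 43.5 in moderate and 27.2 in control mice. Its moderate call was also lost when the offset added after background correction was 50. Fabp3, the fatty acid binding protein of muscle, Lpl, the lipoprotein lipase that frees fatty acids from circulating triglyceride, and Slc27a1, a fatty acid transport protein, did not pass in either stage, with log2 fold changes from -0.06 to 0.20. The 95% interval for Lpl was -0.33 to 0.25 in severe and -0.23 to 0.40 in moderate cachexia. Adipocytes and endothelial cells also carry Cd36 and adipocytes Lpl, and the adipocyte marker signal given above moved with the groups.

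Among the synthetases that activate fatty acids, Acsl6 rose in severe cachexia. Acsl6 had log2 signals of 9.33, 10.51, 9.52 and 10.59 in severe mice, 9.29, 8.81 and 9.11 in moderate mice and 8.87, 9.32, 9.19 and 9.15 in control mice. Severe mice 13 and 16 stood more than 1 log2 unit above every moderate and control mouse, mice 11 and 15 closely above the highest of them, and moderate and control mice overlapped. The log2 fold change was 0.85 (standard error 0.25, adjusted p = 0.0215, 1.81-fold higher) in severe and -0.06 (standard error 0.28, adjusted p = 0.875) in moderate cachexia. Between the stages it was 0.92 (standard error 0.28, adjusted p = 0.0622), and the second probe of the gene gave 1.09 (adjusted p = 0.0492). Without mouse 11 the difference between the stages was 1.13 (adjusted p = 0.016), and without mouse 15 it was 1.07 (adjusted p = 0.0419). The severe call was lost without control mouse 1, severe mouse 13 or severe mouse 16 (0.65 to 0.76, adjusted p = 0.0636 to 0.072). Acsl3, Acsl4 and Acsl5 did not pass in either stage, with log2 fold changes from -0.28 to 0.28, although Acsl3 had 0.63 (adjusted p = 0.0298) in moderate cachexia without moderate mouse 5. Acsl5, a synthetase of the outer mitochondrial membrane, was at 10.16 in severe mouse 11 and at 8.30 to 8.56 in the other severe mice, 8.24 to 8.37 in moderate mice and 8.27 to 8.74 in control mice.

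A promoter of Acsl6 is shown because it is the only one among the promoters of these genes that held the estrogen-related receptor motif TCAAGGTCA, searched exactly on both strands. RefSeq (build GRCm38.p6) gave a promoter, 250 bases before to 50 bases after the start site, for 31 of the 38 tested genes, with 36 start sites. The motif was found in 1 of these 36 (2.78%) and in 0.423% of the 32851 promoters of the same length. It begins 167 bases before a start site of Acsl6 (chr11:54303574-54303873, plus strand), on the opposite strand, and is in capitals. The window shown was picked for this match, and the window of no other start site of these genes held one.
Acsl6: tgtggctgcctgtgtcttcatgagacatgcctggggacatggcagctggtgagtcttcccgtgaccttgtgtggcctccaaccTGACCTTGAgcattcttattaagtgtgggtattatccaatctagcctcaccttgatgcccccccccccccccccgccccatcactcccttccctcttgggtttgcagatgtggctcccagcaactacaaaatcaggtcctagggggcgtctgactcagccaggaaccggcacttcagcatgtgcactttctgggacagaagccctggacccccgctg
A match of letters is a description of the sequence and not a site of binding.

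No gene of the carnitine shuttle passed the test in severe or moderate cachexia. Cpt1b, the muscle form of carnitine palmitoyltransferase 1 and the gate of mitochondrial entry, had log2 signals of 11.84, 11.87, 12.39 and 11.99 in severe mice, 12.16, 12.49 and 12.23 in moderate mice and 12.21, 12.10, 12.20 and 12.22 in control mice. Both stages overlapped the controls. Its log2 fold change was -0.16 (95% interval -0.43 to 0.11) in severe and 0.11 (-0.18 to 0.41) in moderate cachexia. Cpt2, the inner-membrane transferase, had -0.22 in severe and -0.11 in moderate cachexia, and Crat, carnitine acetyltransferase, -0.05 in severe and -0.19 in moderate cachexia. Slc25a20, the carnitine-acylcarnitine carrier, was below every control in all severe mice, at 10.49, 10.63, 10.82 and 10.83 against 10.86, 11.29, 11.17 and 11.15 in controls, but its log2 fold change of -0.43 (standard error 0.16) had an adjusted p of 0.0584. It passed without control mouse 1 (-0.51, adjusted p = 0.0467) and without moderate mouse 9 or 12 (-0.43, adjusted p = 0.0311 and 0.0278).

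The acyl-CoA dehydrogenases, which start each round of β-oxidation and differ in chain length, split in direction. Acads, for short chains, had log2 signals of 9.05, 8.47, 9.22 and 8.78 in severe mice, 9.11, 9.53 and 8.88 in moderate mice and 9.70, 9.45, 9.96 and 9.89 in control mice. All severe mice lay below all controls, and moderate mouse 9 overlapped them. Acads fell in both stages, with a log2 fold change of -0.87 (standard error 0.19, adjusted p = 0.00417) in severe and -0.57 (standard error 0.20, adjusted p = 0.0355) in moderate cachexia. Acadm, for medium chains, also fell in both, with 12.88, 12.48, 12.94 and 12.86 in severe, 12.70, 13.07 and 12.59 in moderate and 13.12, 13.34, 13.08 and 13.21 in control mice. No mouse of either stage reached the lowest control, but the step was small, at -0.40 (standard error 0.13, adjusted p = 0.0309) in severe and -0.40 (standard error 0.14, adjusted p = 0.0356) in moderate cachexia. The severe call of Acadm was lost without control mouse 1, 2 or 4 or severe mouse 13 or 16 (-0.42 to -0.30, adjusted p = 0.0536 to 0.0928), its moderate call without the same controls or moderate mouse 5 or 12 (-0.42 to -0.30, adjusted p = 0.0564 to 0.15), and the moderate call of Acads without control mouse 1, 3 or 4 or moderate mouse 5 or 12 (-0.59 to -0.43, adjusted p = 0.0615 to 0.155).

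Acadl and Acadsb moved the other way. Acadl, for long chains, had log2 signals of 10.10, 10.93, 10.50 and 10.70 in severe mice, 10.58, 10.24 and 10.38 in moderate mice and 9.60, 10.28, 10.15 and 9.80 in control mice. Severe mouse 11 and moderate mouse 9 lay within the control range and the other mice of both stages above it. Acadl rose in severe cachexia (log2 fold change 0.60, standard error 0.19, adjusted p = 0.0253) and had 0.44 (standard error 0.20, adjusted p = 0.0953) in moderate cachexia. Of its other 2 kept probes, the brighter gave the opposite calls, 0.68 (adjusted p = 0.0739) in severe and 1.21 (adjusted p = 0.00645) in moderate cachexia, and the dimmer gave the same calls as the probe used, 0.71 (adjusted p = 0.0158) in severe and 0.43 (adjusted p = 0.122) in moderate cachexia. The severe call was lost without control mouse 1 or 4 or severe mouse 13 or 16 (0.48 to 0.55, adjusted p = 0.0698 to 0.0815), and the moderate value passed without severe mouse 11 (adjusted p = 0.048). Acadsb, which acts on short branched chains from isoleucine, had 11.93, 12.02, 11.55 and 11.87 in severe, 11.62, 11.77 and 11.76 in moderate and 11.49, 11.38, 11.21 and 11.42 in control mice. Both stages lay above all controls, with a log2 fold change of 0.47 (standard error 0.12, adjusted p = 0.00858) in severe and 0.34 (standard error 0.12, adjusted p = 0.0435) in moderate cachexia, and the moderate call was lost on leaving out any mouse but severe mice 11, 13 and 15 (0.28 to 0.39, adjusted p = 0.0508 to 0.118). Acadvl, for very long chains, passed in neither stage (-0.18 in severe, 95% interval -0.47 to 0.12, and 0.09 in moderate cachexia, -0.23 to 0.40).

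Of the 6 genes for the later steps of the cycle, 2 fell in severe and 3 in moderate cachexia, and none rose. Over all genes tested, 17.8% fell and 15.5% rose in severe cachexia, and 22.2% fell and 18.9% rose in moderate cachexia. Whether so few genes differ from these shares was not tested. Of the 6, Acaa2, the mitochondrial 3-ketoacyl-CoA thiolase that cleaves off acetyl-CoA, fell most. Its log2 signal was 9.51, 8.30, 9.11 and 8.62 in severe mice, 9.41, 9.97 and 8.83 in moderate mice and 10.11, 10.17, 10.39 and 10.32 in control mice. All mice of both stages lay below all controls, moderate mouse 9 by the least. The log2 fold change was -1.36 (standard error 0.26, adjusted p = 0.00215, 2.57-fold lower) in severe and -0.84 (standard error 0.28, adjusted p = 0.0284, 1.79-fold lower) in moderate cachexia. Its other 3 kept probes gave -1.35 to -1.24 in severe and -1.03 to -0.68 in moderate cachexia, and 1 of the 3 missed the threshold in moderate cachexia (adjusted p = 0.0616). The moderate call was lost without control mouse 3 or 4 or moderate mouse 5 or 12 (-0.84 to -0.56, adjusted p = 0.0592 to 0.147).

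Hadh, the 3-hydroxyacyl-CoA dehydrogenase for medium and short chains, had log2 signals of 7.27, 7.32, 7.03 and 7.35 in severe mice, 7.27, 7.17 and 6.71 in moderate mice and 7.74, 7.54, 8.03 and 7.72 in control mice. No mouse of either stage reached the lowest control. Hadh fell by a log2 fold change of -0.51 (standard error 0.15, adjusted p = 0.0215) in severe and -0.71 (standard error 0.17, adjusted p = 0.00513) in moderate cachexia, though its dimmer second probe passed in neither (-0.32 in severe, adjusted p = 0.121, and -0.26 in moderate cachexia, adjusted p = 0.22). The severe call was lost without control mouse 3 or severe mouse 15 (-0.44 to -0.42, adjusted p = 0.0602 to 0.0692). The trifunctional protein, which carries out the last 3 steps for long chains, has an α-subunit from Hadha and a β-subunit from Hadhb. Hadhb fell in moderate cachexia alone, with a log2 fold change of -0.38 (standard error 0.13, adjusted p = 0.0324), beside -0.07 (adjusted p = 0.695) in severe cachexia, and its difference between the stages was 0.31 (adjusted p = 0.163). The moderate call of Hadhb was lost without control mouse 1, 2 or 3 or moderate mouse 5 or 12 (-0.42 to -0.24, adjusted p = 0.0515 to 0.162). Hadha did not pass (-0.44, adjusted p = 0.131, in severe and -0.20, adjusted p = 0.516, in moderate cachexia). Echs1, the short-chain enoyl-CoA hydratase, was at -0.07 in severe and 0.02 in moderate cachexia, but a dimmer second probe gave 0.61 (adjusted p = 0.005) in moderate cachexia. Acat1, the acetoacetyl-CoA thiolase, was at 0.29 (adjusted p = 0.0947) in severe and 0.07 in moderate cachexia, and at 0.38 (adjusted p = 0.0245) in severe cachexia without mouse 11.

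Of the 4 genes for unsaturated chains, 1 passed the test, in severe cachexia, and none of the 3 genes for electron transfer passed in severe or moderate cachexia. Eci2, an enoyl-CoA isomerase that shifts double bonds, passed in severe cachexia by a narrow margin, with log2 signals of 10.48, 11.38, 10.71 and 11.20 in severe, 11.09, 10.88 and 10.75 in moderate and 10.34, 10.78, 10.35 and 10.20 in control mice. Severe mice 11 and 15 and moderate mouse 12 lay within the control range. Its log2 fold change was 0.52 (standard error 0.19, adjusted p = 0.0489) in severe and 0.49 (standard error 0.21, adjusted p = 0.0715) in moderate cachexia, and the severe call was lost on leaving out any mouse but control mouse 2 and severe mice 11 and 15 (0.38 to 0.52, adjusted p = 0.0553 to 0.147). The moderate value passed without control mouse 2 (0.61, adjusted p = 0.0378) and without severe mouse 11 or 13 (0.49, adjusted p = 0.034 and 0.0441). Eci1, its mitochondrial relative, lay below all controls in all severe mice (10.94 to 11.33, against 11.38 to 11.60), without passing (-0.41, adjusted p = 0.0658), though it passed without severe mouse 15 (-0.50, adjusted p = 0.0404) or moderate mouse 12 (-0.41, adjusted p = 0.0165). Decr1, the dienoyl-CoA reductase, varied widely within groups (7.39 to 8.67 in severe, 8.03 to 9.31 in moderate and 8.12 to 9.25 in control mice) and did not pass either (-0.71 in severe, adjusted p = 0.0973, or -0.94, adjusted p = 0.042, without control mouse 2, and -0.18 in moderate cachexia). Ech1, another isomerase of double bonds, was at 0.03 in severe and -0.08 in moderate cachexia. Etfa and Etfb, the subunits of the electron transfer flavoprotein, and Etfdh, its dehydrogenase, passed in neither stage. Their log2 fold changes were -0.23 to -0.07 in severe and -0.21 to 0.07 in moderate cachexia, and all their 95% intervals lay between -0.49 and 0.32.

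The thioesterases Acot1 and Acot2 showed the largest rises of the 38 genes in moderate cachexia. They split long-chain acyl-CoA, Acot1 in the cytosol and Acot2 in mitochondria. Acot1 had log2 signals of 7.58, 10.60, 9.85 and 10.48 in severe mice, 11.58, 10.51 and 10.01 in moderate mice and 6.43, 6.88, 8.70 and 7.80 in control mice. All moderate mice and severe mice 13, 15 and 16 lay above all controls, severe mouse 11 lay within the control range, and the controls themselves spread over more than 2 log2 units. The log2 fold change was 2.18 (standard error 0.63, adjusted p = 0.0183, 4.53-fold higher) in severe and 3.25 (standard error 0.68, adjusted p = 0.00272, 9.54-fold higher) in moderate cachexia. Without mouse 11 it was 2.86 (adjusted p = 0.000484, 7.26-fold) in severe cachexia. The severe call was lost without control mouse 1 or 2 or severe mouse 13 or 16 (1.84 to 1.99, adjusted p = 0.0552 to 0.0594).

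Acot2 had log2 signals of 5.93, 8.02, 8.22 and 7.86 in severe mice, 9.68, 9.20 and 8.33 in moderate mice and 6.28, 6.29, 7.15 and 7.23 in control mice. Severe mouse 11 was the lowest of all 11 mice, the other severe mice lay above all controls, and all moderate mice lay above all severe mice. Acot2 rose in moderate cachexia (log2 fold change 2.33, standard error 0.49, adjusted p = 0.00274, 5.04-fold higher) and was at 0.77 (standard error 0.45, adjusted p = 0.205) in severe cachexia. Without mouse 11 it rose in severe cachexia too, by 1.29 (adjusted p = 0.0045, 2.45-fold). Its difference between the stages was -1.56 (95% interval -2.61 to -0.52, adjusted p = 0.0693). Acot13, a mitochondrial thioesterase of another fold, fell in both stages, with 12.27, 12.02, 12.35 and 12.05 in severe, 11.99, 12.57 and 12.27 in moderate and 12.74, 12.64, 12.81 and 12.80 in control mice. No mouse of either stage reached the controls (-0.57, standard error 0.13, adjusted p = 0.00492, in severe and -0.47, standard error 0.14, adjusted p = 0.016, in moderate cachexia), and the moderate call was lost without moderate mouse 5 (-0.32, adjusted p = 0.0949).

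Acot1 and Acot2 are near-identical copies that lie next to each other in the genome, so their array signals may not be fully separate. The start site of Acot1 lies 21641 bases beyond that of Acot2 on the same strand of chromosome 12. Their promoters are shown because the genes rose together in moderate cachexia (RefSeq, GRCm38.p6, Acot2 at chr12:83987611-83987910 and Acot1 at chr12:84009252-84009551, both on the plus strand).
Acot2: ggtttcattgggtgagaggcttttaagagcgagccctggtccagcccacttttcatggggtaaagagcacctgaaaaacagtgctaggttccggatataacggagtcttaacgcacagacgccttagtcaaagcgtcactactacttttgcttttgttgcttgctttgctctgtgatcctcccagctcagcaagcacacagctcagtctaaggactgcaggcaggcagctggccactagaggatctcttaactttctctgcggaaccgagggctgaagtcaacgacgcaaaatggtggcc
Acot1: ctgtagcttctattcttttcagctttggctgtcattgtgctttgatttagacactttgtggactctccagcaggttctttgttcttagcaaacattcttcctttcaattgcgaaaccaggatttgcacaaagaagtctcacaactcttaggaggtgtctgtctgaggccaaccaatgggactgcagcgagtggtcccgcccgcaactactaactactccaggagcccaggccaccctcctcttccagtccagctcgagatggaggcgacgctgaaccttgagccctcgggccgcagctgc
Both were searched for TCAAGGTCA, for the FOXO motif GTAAACA and for the PPAR motif (a direct repeat of AGGTCA with 1 free base between the copies, up to 2 mismatches), on both strands, and neither window held a match.

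**Figure D3:**
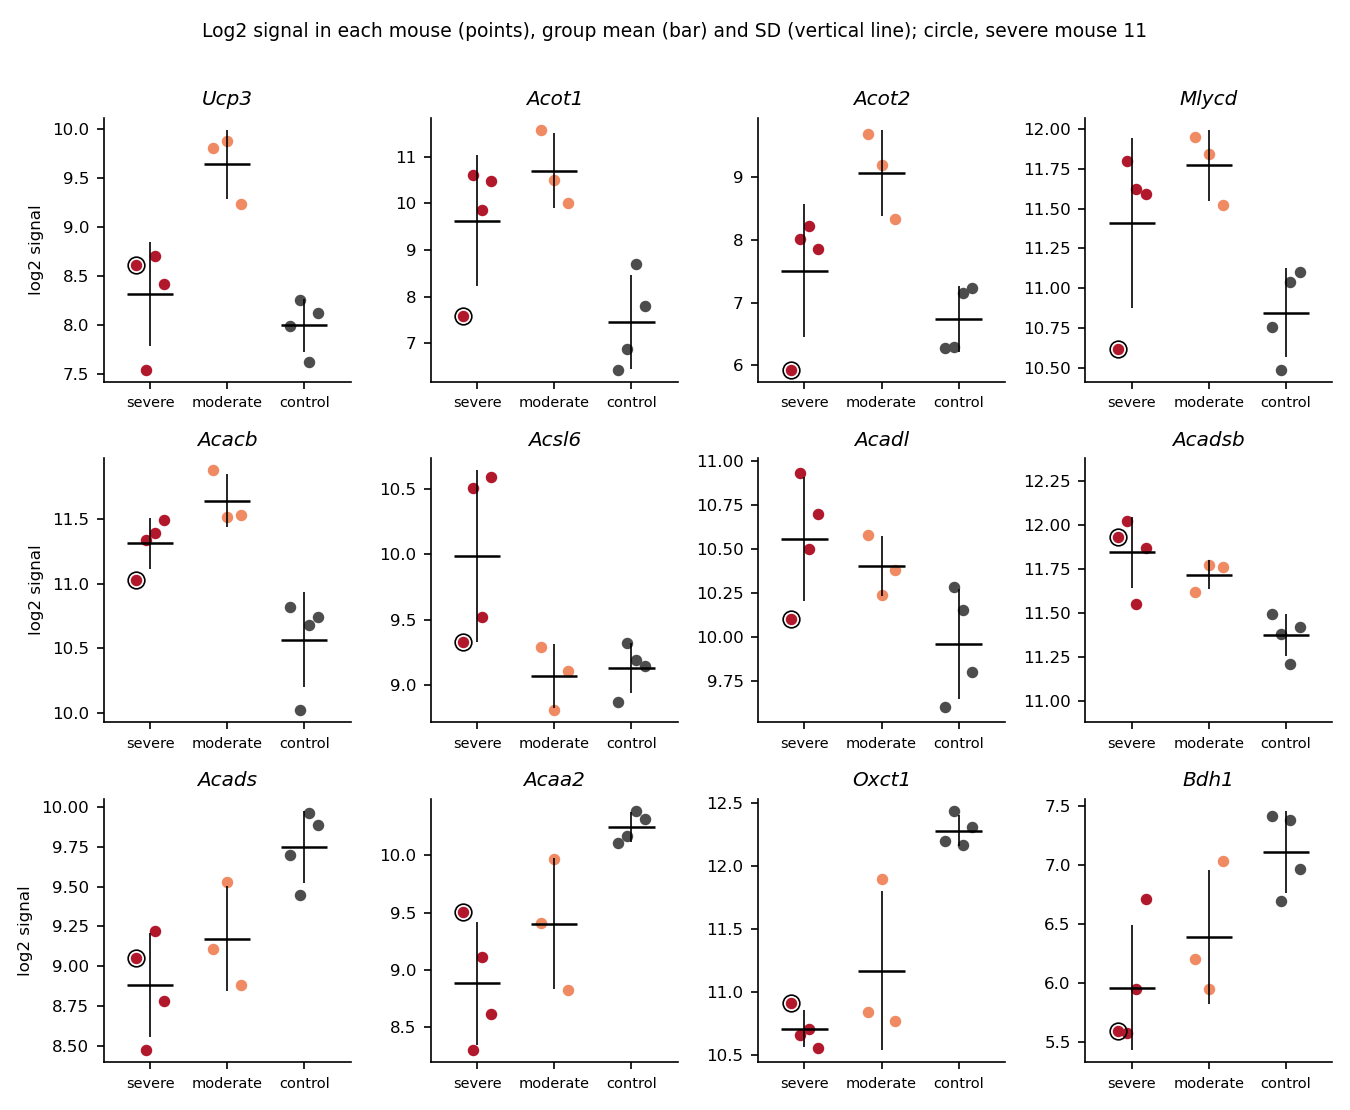
Log2 signal (y axis) of 12 genes in each severe, moderate and control mouse (points, left to right), with the group mean (horizontal bar) and SD (vertical line), and severe mouse 11 circled. In Acot2 this mouse is at 5.93 while the other severe mice are at 7.86 to 8.22, in Ucp3 the moderate mice (9.23 to 9.88) lie above all others, and in Oxct1 all severe and moderate mice (10.56 to 11.90) lie below all controls (12.17 to 12.44).

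Both tested genes of malonyl-CoA balance were higher in cachexia. Acacb, the acetyl-CoA carboxylase at the mitochondrial surface that makes the malonyl-CoA blocking Cpt1, had log2 signals of 11.03, 11.34, 11.39 and 11.49 in severe mice, 11.88, 11.52 and 11.53 in moderate mice and 10.82, 10.02, 10.68 and 10.74 in control mice. The groups did not overlap at all, with moderate mice above severe mice and severe mice above controls. Acacb rose by 0.75 (standard error 0.17, adjusted p = 0.00578, 1.68-fold) in severe and by 1.08 (standard error 0.19, adjusted p = 0.00092, 2.11-fold) in moderate cachexia, while the difference between the stages did not pass (-0.33, adjusted p = 0.309). Mlycd, malonyl-CoA decarboxylase, which removes malonyl-CoA, had 10.62, 11.80, 11.62 and 11.59 in severe, 11.95, 11.84 and 11.52 in moderate and 10.76, 10.49, 11.04 and 11.10 in control mice. Again mouse 11 lay among the controls and the other severe and all moderate mice above them. Mlycd rose in moderate cachexia (log2 fold change 0.92, standard error 0.25, adjusted p = 0.0101, 1.89-fold higher) and was at 0.56 (standard error 0.23, adjusted p = 0.0729) in severe cachexia, and at 0.82 (adjusted p = 0.00125) there without mouse 11. The moderate call was lost without moderate mouse 5 (0.83, adjusted p = 0.0507). The maker and the remover of malonyl-CoA were thus both higher in severe mice 13, 15 and 16 and in all moderate mice than in any control.

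Ucp3, the uncoupling protein of the skeletal muscle mitochondrion, was the only gene of the set whose difference between the stages passed the test with all mice and the probe used. Its log2 signal was 8.61, 7.54, 8.70 and 8.41 in severe mice, 9.80, 9.88 and 9.23 in moderate mice and 7.99, 8.25, 7.62 and 8.12 in control mice. All moderate mice lay above all other mice, while severe and control mice overlapped. Ucp3 rose in moderate cachexia by 1.64 (standard error 0.26, adjusted p = 0.000593, 3.12-fold) and was at 0.32 (standard error 0.24, adjusted p = 0.331) in severe cachexia. Between the stages the log2 difference was -1.33 (standard error 0.26, adjusted p = 0.0116), that is 2.51-fold lower in severe than in moderate cachexia, and it was -1.42 (adjusted p = 0.00895) without mouse 11. In severe cachexia Ucp3 passed only without mouse 13, the lowest severe mouse (0.58, adjusted p = 0.0416). A second probe gave 0.32 in severe and 1.60 in moderate cachexia, and -1.28 (adjusted p = 0.0105) between the stages. The difference was lost without moderate mouse 5 (-1.25, adjusted p = 0.0602), when only the arrays of the stages were fitted (adjusted p = 0.0527) and with the 2-group test named in the methods (adjusted p = 0.173).

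The promoter of Ucp3 (RefSeq, GRCm38.p6, chr7:100472741-100473040, plus strand) is shown because this gene differed between the stages and its window held this PPAR-type direct repeat of AGGTCA with 2 mismatches, in capitals.
Ucp3: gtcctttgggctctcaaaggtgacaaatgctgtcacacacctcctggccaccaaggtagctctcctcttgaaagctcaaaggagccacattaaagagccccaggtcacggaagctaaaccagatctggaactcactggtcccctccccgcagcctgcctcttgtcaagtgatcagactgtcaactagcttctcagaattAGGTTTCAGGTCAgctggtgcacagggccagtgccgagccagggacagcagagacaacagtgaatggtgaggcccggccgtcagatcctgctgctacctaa
The repeat begins 51 bases before the start site. Such a repeat with at most 2 mismatches was in 5 of the 36 promoters of the set (13.9%) and in 3.86% of all 32851 promoters. Besides Ucp3, the holders were Cd36, Echs1, Etfa and Slc25a20, of which Cd36 passed in moderate cachexia and the rest in neither stage by the probe used. The FOXO motif GTAAACA was in 0 of the 36 and in 3.65% of all promoters.

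Genes of ketone body use were lower. Oxct1 encodes the transferase that commits ketone bodies to oxidation outside the liver, and Bdh1 the dehydrogenase that turns β-hydroxybutyrate into acetoacetate. Oxct1 had log2 signals of 10.91, 10.66, 10.71 and 10.56 in severe mice, 10.84, 11.90 and 10.77 in moderate mice and 12.20, 12.44, 12.17 and 12.31 in control mice. All mice of both stages lay below all controls, moderate mouse 9 being nearest to them. Its fall was the largest of the 38 genes in each stage, with a log2 fold change of -1.57 (standard error 0.20, adjusted p = 0.000222, 2.97-fold lower) in severe and -1.11 (standard error 0.22, adjusted p = 0.00191, 2.16-fold lower) in moderate cachexia, and its second probe gave -1.52 in severe and -0.91 in moderate cachexia. Bdh1 had 5.60, 5.58, 5.95 and 6.71 in severe, 6.20, 5.95 and 7.03 in moderate and 7.41, 6.69, 7.38 and 6.96 in control mice. Severe mouse 16 and moderate mouse 12 overlapped the controls. Bdh1 fell in severe cachexia (log2 fold change -1.15, standard error 0.28, adjusted p = 0.00832, 2.21-fold lower) and was at -0.71 (standard error 0.30, adjusted p = 0.0762) in moderate cachexia, where it passed without moderate mouse 12 (-1.03, adjusted p = 0.0247) or severe mouse 16 (-0.71, adjusted p = 0.0422).

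Genes of neighboring routes were set beside the shares of all genes that fell, 17.8% in severe and 22.2% in moderate cachexia. Like the set itself, these lists and those of regulators and targets below were written with earlier results of these data known. Of 16 citrate cycle genes tested, 14 fell in severe and 13 in moderate cachexia and none rose (median log2 fold change -0.69 and -0.68), among them Mdh2, malate dehydrogenase (-0.97 and -0.84), and Sdhb, a subunit of succinate dehydrogenase (-0.83 and -0.79), each value for severe and then moderate cachexia. Of 11 genes of peroxisomal oxidation, 9 fell in severe and 7 in moderate cachexia and none rose (median -0.55 and -0.51), with Acaa1b, a peroxisomal thiolase, at -1.11 in severe and -1.60 in moderate cachexia and Abcd2, a peroxisomal importer of very long chains, at -1.30 and -1.55. Of 11 other genes of fatty acid oxidation, 2 rose and 4 fell in each stage. Acss1, the mitochondrial acetyl-CoA synthetase, rose by 1.23 (adjusted p = 0.0263) in severe and 2.71 (adjusted p = 0.000466) in moderate cachexia, whereas Acot7, another acyl-CoA thioesterase, was at -0.90 and -0.87 and Slc22a5, the carnitine importer of the cell membrane, at -0.63 and -0.50. Slow and oxidative fiber markers were lower in the same groups, as given above.

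**Figure D4:**
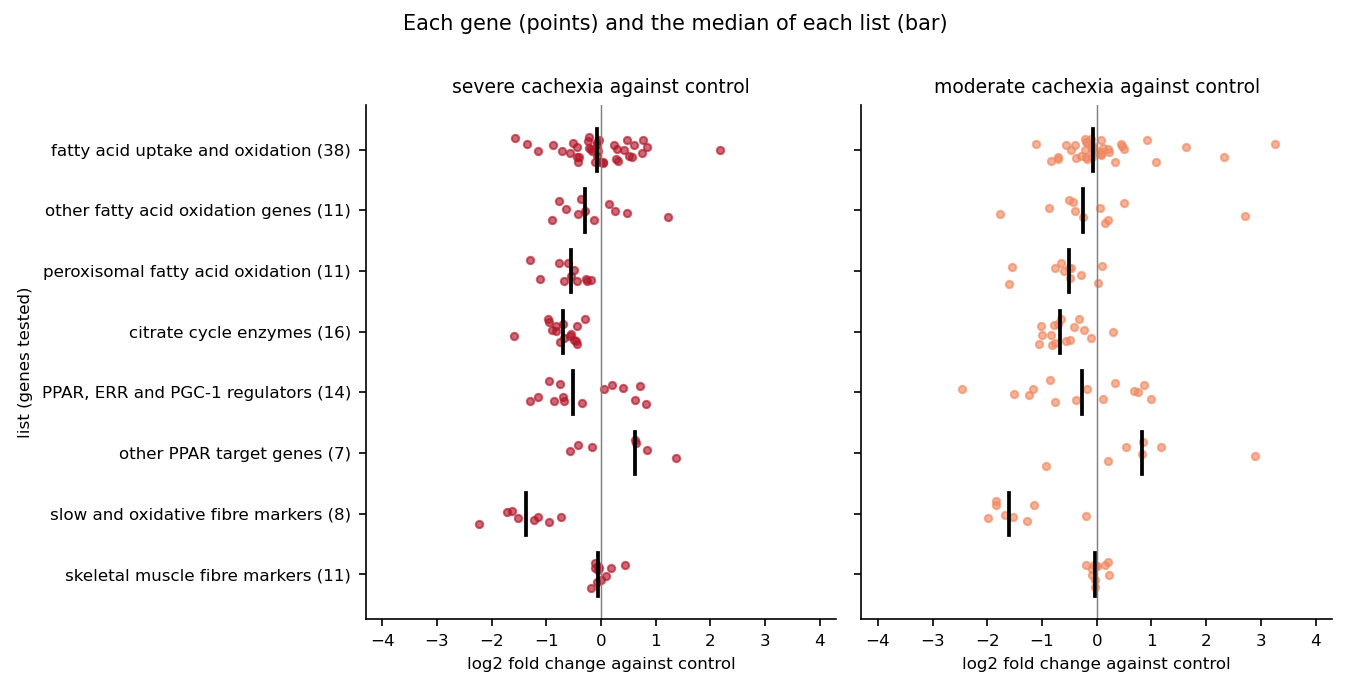
Log2 fold change (x axis) of each gene (points) in 8 lists (y axis, with the number of genes tested) in severe (left) and moderate cachexia (right) against control, with the median of each list as a bar. The 38 genes of fatty acid use center near 0 (-0.07 in each stage), citrate cycle enzymes lie at -0.69 and -0.68 and slow and oxidative fiber markers at -1.37 and -1.60.

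Regulators of the PPAR, ERR and PGC-1 group also moved in both directions, while more of the other PPAR targets rose than fell. Of 14 regulators tested, 3 rose and 6 fell in severe and 4 rose and 5 fell in moderate cachexia. Ppargc1b, the coactivator PGC-1β, was at -1.15 in severe and -2.46 in moderate cachexia (adjusted p = 0.000763 and 6.05e-06) and was higher in severe than in moderate cachexia by 1.31 (adjusted p = 0.00365). Esrra and Esrrg, the estrogen-related receptors α and γ, fell in both stages (-0.95 and -1.17 for Esrra, -0.75 and -1.24 for Esrrg, severe and then moderate), and Pprc1, a PGC-1-related coactivator, rose in both (0.72 and 0.76). Ppargc1a, Nrip1 and Ppard were named after their values were seen. Ppargc1a, the coactivator PGC-1α, was at -0.35 (adjusted p = 0.183) in severe and 0.69 (adjusted p = 0.0203) in moderate cachexia. Of the 14 regulators, 3 passed between the stages. Ppargc1a was lower in severe than in moderate cachexia (-1.04, adjusted p = 0.0134), while Ppargc1b and Nrip1 (0.81, adjusted p = 0.0306) were higher. Ppard, which encodes PPARδ, rose by 0.82 (adjusted p = 0.00552) in severe and 1.0 (adjusted p = 0.00215) in moderate cachexia. Of 7 other PPAR targets tested, 3 rose and 0 fell in severe and 4 rose and 1 fell in moderate cachexia (median log2 fold change 0.63 and 0.83). Of all genes tested, 15.5% rose in severe and 18.9% in moderate cachexia. Pdk4, the kinase that shuts off pyruvate dehydrogenase when fat is burned, rose by 1.38 (adjusted p = 0.0007) in severe and 2.89 (adjusted p = 6.05e-06) in moderate cachexia and was lower in severe than in moderate cachexia by a log2 difference of -1.51 (adjusted p = 0.00384). Txnip, an inhibitor of glucose uptake, also differed between the stages (-1.01, adjusted p = 0.0157), with -0.17 in severe and 0.84 in moderate cachexia. Vldlr rose in both stages (0.64 in severe and 0.83 in moderate cachexia). Plin5 rose in moderate cachexia (1.17, adjusted p = 0.00679) and was at 0.63 (adjusted p = 0.0883) in severe cachexia. Neither Vldlr (-0.19, adjusted p = 0.502) nor Plin5 (-0.54, adjusted p = 0.279) passed between the stages, where 2 of the 7 targets did.

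Genes with more than 1 kept probe allowed a check of these calls within the arrays. For the 21 tested genes that had them, 26 of 28 other probes gave the same call as the probe used in severe cachexia, 24 of 28 in moderate cachexia and 27 of 28 between the stages. The exceptions were those of Acadl, Acsl6, Hadh, Echs1 and Acaa2 given above. Many of the other probes belong to genes that did not pass, where the same call means only that neither probe passed. Between the stages, Ucp3 was the only gene that passed. The direction was the same for 22 of 28 other probes in severe cachexia, 20 in moderate cachexia and 22 between the stages. Probes of opposite direction were all of genes that did not pass in that comparison. Calls that held in every alternative setting that tested them (minimum folds aside) were those of Acads, Acadsb, Acaa2, Acot13, Acacb, Oxct1 and Bdh1 in severe cachexia and of Acot1, Acot2, Acacb and Ucp3 in moderate cachexia, 7 of 13 and 4 of 14 calls.

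Other definitions of a changed gene gave lower counts in both stages. With the 2-group test named in the methods, after adjustment, 9 of the 38 genes passed in severe and 8 in moderate cachexia and 0 between the stages, where 23.3%, 32.2% and 0.0691% of all genes did in these 3 comparisons. With the same test at the thresholds of the methods (an unadjusted p under 0.05 and a 2-fold change or more), 4 passed in severe (6.51% of all genes), 5 in moderate cachexia (9.41%) and 1 between the stages (1.44%). An adjusted p under 0.05 in limma together with a fold of at least 1.5 was met by 8 genes in severe (19.9% of all genes), 8 in moderate cachexia (27% of all genes) and 1, Ucp3, between the stages (5.2%).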

How the data were processed

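Quadriceps RNA of 11 mice was hybridized to Illumina MouseWG-6 v2.0 arrays. Per the labels and methods, 400 ng RNA was labeled with the Illumina TotalPrep kit, and signals were made in BeadStudio and normalized in GeneSpring GX 7.3. The deposited intensity values are linear, and the authors had subtracted background and quantile-normalized them (28.5% were below 0, and sorted columns differed by at most 0.319). The deposited detection p-value of a probe compares its signal with background. The ratio values deposited by the authors equaled these intensities, floored at 1, over the control median (100% within a relative tolerance of 0.001). Columns of the intensity table name the group only, and since values were not used to assign samples, they were left without the replicate numbers that the labels give. No source used here gives the chip of an array, so chips could not be compared. Precision is limited by the number of arrays, and p-values measure the spread between these mice.

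Intensities were passed to neqc of limma 3.58.1 in R 4.3.3 (normexp from detection p, offset 16, then quantile normalization and log2). A probe was kept if its detection p was under 0.01 on all arrays of 1 group or more, which left 18837 of 45281 probes. Of all probes, 34885 had 1 gene symbol in the platform annotation (updated to current symbols), 18 had several and 10378 none, and the last 2 kinds were not used. The brightest probe stood for each gene. Means of the 3 groups were fitted to all arrays in limma (lmFit, then eBayes with trend), p-values were Benjamini-Hochberg adjusted over the 10129 genes tested, and a gene was called changed at an adjusted p under 0.05. The script was tested on simulated data. Summed marker signals are sums of the deposited intensities over the tested genes of a list. Motifs were searched in RefSeq promoters of build GRCm38.p6. Figures were drawn with matplotlib 3.10.9.

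The genes of the set and all lists were chosen with earlier results of these data known. Full values are given for genes called in both stages, for the 8 largest changes per comparison and for genes called between stages, with up to 4 genes of each other list by smallest adjusted p. Ppargc1a, Nrip1, Ppard and Dcn were named outside this rule. Alternatives were no background correction, offset 50, median scaling, the deposited ratios without and with a replicate block, no filter, detection on all arrays, the mean or the second brightest probe of a gene, only the arrays compared, the methods' t-test (after adjustment, and at a fold of at least 2 with an unadjusted p under 0.05), no intensity trend, a minimum fold of 1.5 and each mouse left out in turn. A planned comparison of protein sequences was not run.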

Additional observations from a re-analysis of the deposited data

Results flagged for a closer look

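Among the 76 groups of 4 mice examined (38 genes in severe and in control mice), 2 held a mouse far from the rest of its group by Dixon's test, where chance gives about 3.8, and both were severe mouse 11. Acsl5 was at a log2 signal of 10.16 in this mouse and at 8.30 to 8.56 in the other severe mice. Acot2 was at 5.93 in it and at 7.86 to 8.22 in the others. Groups of 3, and so moderate mice, were not examined. Ucp3 was marked because its levels differed between the stages in the limma fit (log2 difference -1.33 for severe minus moderate cachexia, adjusted p = 0.0116, with all 3 moderate mice above all 4 severe mice).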

How the results depend on the processing

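No log2 fold change that passed the test in any setting changed its sign. Of all values of single genes under the alternatives, 2425 kept their side of the threshold, 114 lost a call and 32 gained a call. The count of changed genes in moderate cachexia (14) was 7 with the deposited ratios and a replicate block, 9 with no filter, 8 of 21 with the second brightest probe, 8 with the methods' t-test after adjustment, 5 at the methods' thresholds and 8 with a minimum fold of 1.5. It ran from 7 (without moderate mouse 5) to 16 with each mouse left out, and was 9 without control mouse 1, 3 or 4 or moderate mouse 12. Over all genes tested, moderate calls went from 4161 in the main fit to 2582 without moderate mouse 5. They were 3399, 3537 and 3578 without control mouse 1, 3 and 4, and 3065 without moderate mouse 12. With the block they were 3313, and with no filter 3603 of 19038, where 40 genes of the set were tested. The count in severe cachexia (13) was 6 of 21 with the second brightest probe, 4 at the methods' thresholds and 8 with a minimum fold of 1.5, and ran from 8 (without severe mouse 16) to 17 (without severe mouse 11). Severe calls over all genes tested were 3373 in the main fit, 2282 without severe mouse 16 and 4092 without severe mouse 11. Between the stages (1, Ucp3) it was 0 with the replicate block, with only the arrays compared and with the methods' t-test after adjustment, and 2 with the second brightest probe, and ran from 0 (without moderate mouse 5) to 2 (without severe mouse 11 or 15). At an unadjusted p under 0.05 these 4 settings with 0 held 3 genes with the block, 3 with only the arrays compared, 1 with the t-test and 6 without moderate mouse 5. Calls between the stages over all genes tested were 710 in the main fit. In these 4 settings they were 249 with the block, 208 with only the arrays compared, 7 with the t-test and 195 without moderate mouse 5. The lower counts with the second brightest probe rest on fewer genes, and for the other settings the cause was not tested. Replicate numbers of the labels gave no sign of pairing the mice. Same-numbered deviations from the group means correlated at r = -0.348 to 0.124 over 10 pairs and other numbers at -0.200 to 0.280. With groups this small, such correlations cannot exclude a weak block shared by same-numbered mice.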
